A study of Drosophila melanogaster with 9 samples.

Results

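BX2 is a locus of 7 P(lacW) transgenes in tandem, inserted in an intron of AGO1 on the second chromosome of Drosophila melanogaster. The same DNA exists in an inactive state, BX2OFF, and in active states, of which BX2theta is the one obtained by raising BX2OFF flies at high temperature. The 2 libraries described here, of 9 in the series, were made from ovaries of BX2OFF flies and of BX2theta flies at 25°C, with 1 library for each state. The members were taken by the library names in the length and position tables of P(lacW) and of 42AB, a natural piRNA cluster. Flies of both genotypes also carried P(TARGET)GS, a euchromatic P-lacZ reporter. The study reports that it makes β-Galactosidase in germline and soma of the ovary with BX2OFF, and that its germline expression is repressed in BX2theta lines. P(TARGET)GS and P(lacW) have in common a transcribed stretch from position 87 to position 3633 of P(lacW), which covers part of the P element and lacZ. It makes up 33.2% of the transgene. Reads of that stretch cannot be told apart between BX2 and the reporter. Sequence outside it was not compared between the transgenes, so positions there may match the reporter too. The BX2theta lines were converted at 29°C and had then been moved to 25°C, so temperature at sampling was the same in both libraries. Conversion, line history and library cannot be told apart with 1 library a state.

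Piwi-interacting RNAs, or piRNAs, are small RNAs that guide Piwi proteins to complementary transcripts in the germline, and in the fly ovary most are 23 to 29 nt long. A dual-strand cluster such as 42AB is transcribed from both strands, and its transcripts are also cut into small interfering RNAs of 21 nt by Dicer-2. In the ping-pong cycle, Aub and Ago3 cut transcripts of opposite strands in turn, so that the 5′ ends of a sense and an antisense piRNA lie 10 nt apart. In phased production, Zucchini cuts 1 precursor step by step, and the 5′ ends of piRNAs on the same strand then follow each other at about the length of a piRNA. Both patterns leave traces in the 5′ positions, which the tables hold for reads of 18 to 29 nt of all lengths together.

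The BX2OFF library had 16923421 reads that matched the genome and 3621703 that matched miRNAs, and the BX2theta library had 18545573 and 3951462. Levels are given in reads per 1000000 miRNA reads, called miRNA rpm, in which 1 read is worth 0.276 in BX2OFF and 0.253 in BX2theta. P(lacW) positions ran from 1 to 10690 and took up 902 reads in BX2OFF and 64503 in BX2theta. 42AB positions ran from 1 to 247860 and took up 2075646 and 2093549 reads, so 42AB was measured far more deeply than P(lacW) in both. With 1 library a state no test between states was possible, and no value below has a replicate error. Intervals are 95% intervals, exact for ratios of levels and Wilson for shares, and hold for counting error alone, as PCR copies of 1 molecule count as separate reads. Beside a count of 0, the ratio is a lower bound that puts 3 reads in its place.

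P(lacW) small RNAs were far more abundant in BX2theta at every length, and the gain was not even over lengths. Reads of 23 to 29 nt, the piRNA lengths, stood at 111 miRNA rpm in BX2OFF (403 reads) and at 12269 in BX2theta (48495 reads). Their ratio was 110 (95% interval 100.003 to 122). Reads of 21 nt, the length of small interfering RNAs, stood at 112 miRNA rpm in BX2OFF (407 reads) and at 3028 in BX2theta (11969 reads), a ratio of 26.96 (24.4 to 29.8). The interval of the 21 nt ratio lay wholly below that of the piRNA lengths. In BX2OFF the 21 nt reads made up 45.1% of all P(lacW) reads, and in BX2theta 18.6%. At 42AB in the same libraries 21 nt reads made up 3.67% and 3.42%. In BX2theta their share was thus still larger at P(lacW) than at 42AB.

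Taken length by length, the ratio was lowest at the short lengths and stepped up between 21 and 24 nt. It was 36.1 (15.2 to 112) at 18 nt, 32.4 (17.4 to 68.1) at 19 nt and 28.6 (19.1 to 44.9) at 20 nt, where BX2OFF had only 5, 10 and 24 reads. At 22 nt, with 53 and 2740 reads, it was 47.4 (36.1 to 63.4), above the interval at 21 nt. At 23 nt, with 22 and 2127 reads, it was 88.6 (58.4 to 142). The highest value of the 12 lengths was at 24 nt, where 35 reads in BX2OFF stood against 6764 in BX2theta, a ratio of 177 (127 to 255). From 25 to 29 nt the ratio was 100 (82.0 to 125), 112 (92.1 to 137), 99.8 (81.7 to 123), 125 (89.4 to 181) and 81.0 (52.3 to 133), and these intervals overlap. The intervals at 24 and 25 nt do not overlap.

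**Figure D1:**
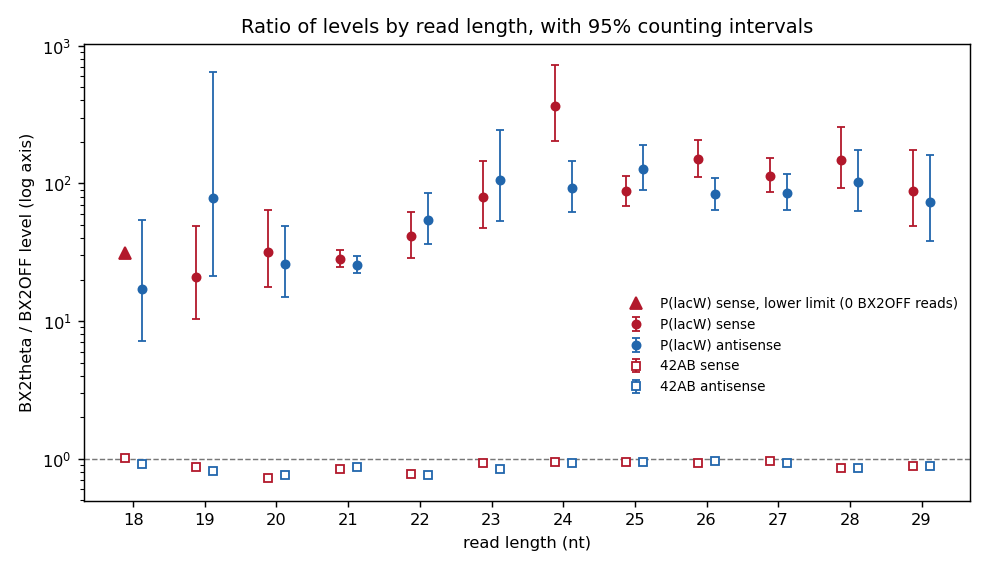
Ratio of the BX2theta level to the BX2OFF level (log axis) at each read length, for P(lacW) (filled) and 42AB (open) and both strands, with 95% counting intervals; the triangle is a lower bound where BX2OFF had 0 reads. P(lacW) values lie between 17.2 and 363, highest for 24 nt sense reads, whereas 42AB values lie between 0.728 and 1.01.

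The high value at 24 nt came from the sense strand, the strand on which lacZ is read. There BX2OFF had 11 reads and BX2theta 4350, a ratio of 363 (202 to 727). Of the 23 to 29 nt sense reads, 24 nt made up 5.24% in BX2OFF and 15.1% in BX2theta, against 12.5% and 12.7% at 42AB. The value thus rests on a low count in BX2OFF. On the antisense strand 24 and 2414 reads gave 92.2 (61.8 to 144), which is close to the antisense values at 26 nt (83.1, 64.2 to 110) and 27 nt (85.2, 63.9 to 116). At 25 nt the strands were the other way round, with 87.3 (68.1 to 114) for sense and 128 (89.7 to 190) for antisense, and those intervals overlap. At 21 nt both strands were alike, with 28.4 (24.7 to 32.9) for sense and 25.6 (22.3 to 29.5) for antisense. For 18 nt sense reads, of which BX2OFF had 0 and BX2theta 103, the level was at least 31.5-fold higher in BX2theta.

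Over 23 to 29 nt the sense ratio was 125 (110 to 144) and the antisense ratio 93.8 (81.4 to 109), so the strand balance moved toward sense. Antisense reads made up 47.9% (43.1 to 52.8) of the 23 to 29 nt reads in BX2OFF and 40.7% (40.3 to 41.2) in BX2theta. Within BX2theta the share was lowest at 24 nt, at 35.7% (34.6 to 36.8), and was 41.1% at 25 nt, 42.3% at 26 nt, 41.4% at 27 nt, 40.6% at 28 nt and 40.5% at 29 nt. At 21 nt it was 48.5% (47.6 to 49.4) and at 22 nt 52.2% (50.3 to 54.0), so the shorter reads were close to equal on both strands and the piRNA lengths leaned to sense. In BX2OFF the 24 nt share was 68.6% (52.0 to 81.4) from 35 reads, on the other side of equality. At 42AB antisense reads made up 48.8% in BX2OFF and 48.6% in BX2theta over 23 to 29 nt.

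The shape of the piRNA length profile in BX2theta resembled that of a natural cluster. The most frequent length was 26 nt, which held 25.7% of the 23 to 29 nt P(lacW) reads in BX2theta, 25.3% in BX2OFF and 25.2% of the 42AB reads in BX2theta. To turn the BX2theta profile into that of 42AB in the same library, 5.56% of the sense reads and 7.33% of the antisense reads would have to take another length. Between libraries the 42AB profile differed by 1.01% of sense and 1.503% of antisense reads. The BX2OFF and BX2theta profiles of P(lacW) differed by 15.4% of sense reads and 6.92% of antisense reads, the former from only 210 sense reads in BX2OFF. How far the BX2OFF profile lay from 42AB was not computed, so it is not shown which state lay nearer to the cluster.

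**Figure D2:**
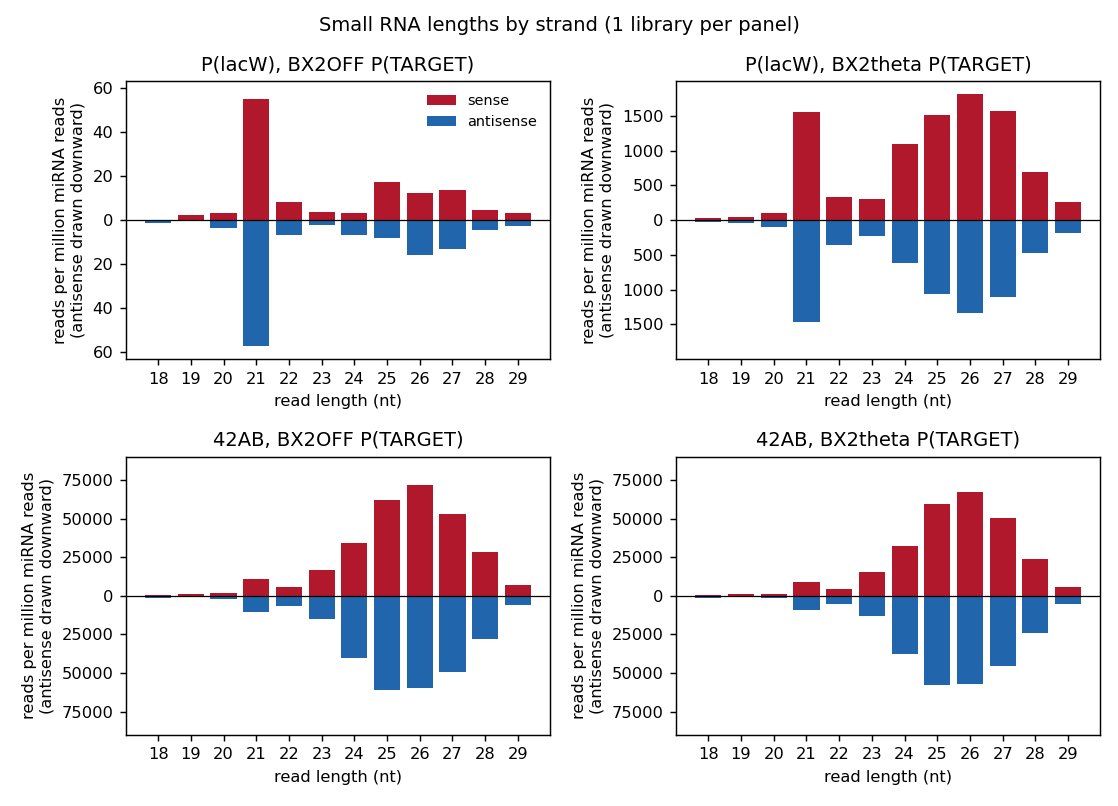
Level (miRNA rpm) of sense reads (upward) and antisense reads (downward) at each length of 18 to 29 nt, for P(lacW) (top) and 42AB (bottom) in 1 BX2OFF and 1 BX2theta library; each P(lacW) panel has its own scale. In BX2OFF the 21 nt class stands above all others at P(lacW), with 45.1% of the reads, whereas in BX2theta the 26 nt class is highest with both strands together, as at 42AB; on the antisense strand alone 21 nt is highest at P(lacW) in BX2theta, with 5804 reads against 5259, and 25 nt at 42AB.

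42AB was close to level between the libraries, and a little lower in BX2theta. Its 23 to 29 nt reads stood at 531395 miRNA rpm in BX2OFF and 495358 in BX2theta, a ratio of 0.932 (0.930 to 0.934). By length the ratio ran from 0.746 at 20 nt to 0.949 at 25 and 26 nt, and was 0.773 at 22 nt and 0.862 at 21 nt. These deviations from 1 are beyond counting error at this depth, and with 1 library a state their spread between libraries is unknown. They are small beside the ratios at P(lacW), where the lowest of any length over both strands was 26.96.

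The 3 libraries of BX2OFF flies at 25°C without the reporter, made in another experiment, give the only measure of spread for the inactive state at 25°C. Their 23 to 29 nt P(lacW) reads numbered 336, 325 and 372, or 10.7 ± 0.967 Dmel rpm (SD, n = 3), that is, scaled to the genome-matched reads of the library. On that scale the BX2OFF library with the reporter stood at 23.8 and the BX2theta library at 2615. The former was thus 2.22 times the mean without the reporter and above the highest of those 3 libraries, at 11.9, and the latter 243 times that mean. Reporter, experiment and the choice of reads kept in the table cannot be told apart in this step. The difference between BX2theta and BX2OFF was far larger than the spread over those 3 inactive libraries.

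Along P(lacW), BX2theta reads lay over nearly the whole transgene. Of the 10690 positions, 3823 (35.8%) held the 5′ end of at least 1 sense read in BX2theta and 3542 (33.1%) that of an antisense read. In BX2OFF 293 and 296 positions did. Most of that gap goes with the greater number of P(lacW) reads in BX2theta. If the BX2theta reads were thinned to the 457 sense and 445 antisense reads of BX2OFF, 316 and 326 positions would be occupied on average, only somewhat more than were found in BX2OFF. A BX2theta position held 9.65 sense reads or 7.80 antisense reads on average, against 1.56 and 1.503 in BX2OFF, where 64.2% and 66.6% of the occupied positions held 1 read.

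The longest stretch of P(lacW) without a 5′ end on either strand in BX2theta was 57 nt, from position 4013 to 4069. In BX2OFF it was 275 nt, from 4012 to 4286, overlapping it. By strand, the longest antisense stretch in BX2theta was a little further on, from 4296 to 4374, and that in BX2OFF lay before it, from 3608 to 3973. Of the 100 bp windows the one from 4101 to 4200 had the fewest BX2theta reads, with 4 sense and 13 antisense, against 0 and 0 in BX2OFF. The next poorest sense windows, 4201 to 4300 and 8101 to 8200, had 23 and 24 reads, and antisense windows 6701 to 6800 and 8301 to 8400 had 22 each.

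By 100 bp windows, P(lacW) reads were higher in BX2theta all along the transgene. Of 213 windows, counted by strand and with at least 10 reads in both libraries together, 213 were more than 2-fold higher (100%) and 205 more than 10-fold. Most windows reached 10 reads only through BX2theta, since the median BX2OFF window held 3 sense or 4 antisense reads, so these counts are largely set by the choice of windows and are given as a description. Of the windows with at least 10 reads in BX2OFF alone, 12 sense and 8 antisense, 12 and 8 were more than 2-fold higher in BX2theta, with ratios of 17.6 to 81.4 and 16.8 to 73.2. Over all windows the median ratio was 44.9 for sense and 41.9 for antisense windows when fewer than 3 BX2OFF reads were entered as 3, and 53.5 and 44.55 when only counts of 0 were. Among 398 windows of 1000 bp in 42AB, 3 (0.754%) were more than 2-fold higher in BX2theta and 20 (5.03%) more than 2-fold lower. The richest sense windows in BX2theta were 4401 to 4500, with 1534 reads against 6 in BX2OFF, 1801 to 1900, with 1509 against 17, and 1701 to 1800, with 1441 against 7. The richest antisense windows were 1601 to 1700, with 1118 reads against 14, 201 to 300, with 997 against 7, and 1301 to 1400, with 895 against 14.

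**Figure D3:**
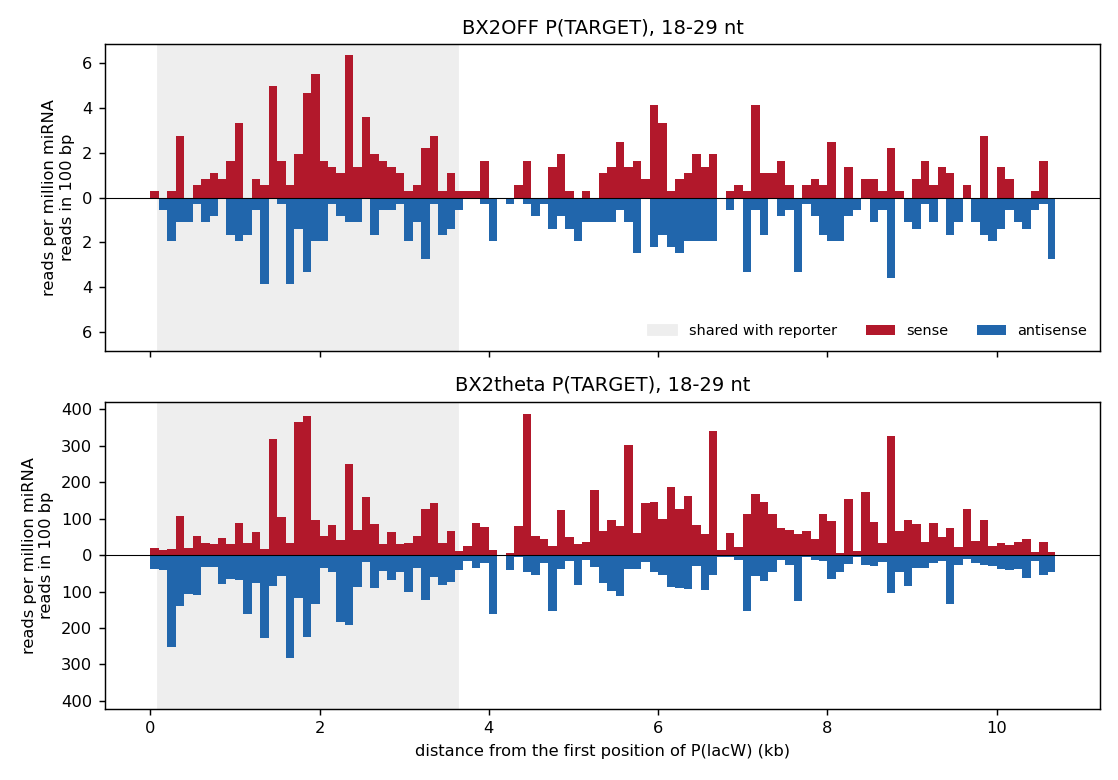
Level (miRNA rpm) of 18 to 29 nt reads in 100 bp windows along P(lacW), by distance from its first position in kb, sense upward and antisense downward, in the BX2OFF and the BX2theta library; the grey band is the part shared with the reporter and each panel has its own scale. In BX2theta both strands are covered from end to end except near 4.1 kb, and antisense reads are concentrated in the grey band, which holds 51.8% of them.

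Sense and antisense reads of BX2theta were only weakly related along the transgene. Over the 107 windows of each strand their Spearman rho was 0.17 and their Pearson r 0.15. At 42AB in the same library, over the 212 windows of 1000 bp that were not empty on both strands, rho was 0.67 and r 0.31. With windows of 1000 bp, of which P(lacW) has only 11, its values were 0.27 and 0.50, so the order depends on the measure. Windows are not independent samples. The BX2OFF and BX2theta libraries were related more closely, with a rho of 0.61 for sense and 0.53 for antisense windows of P(lacW). At 42AB that value was 0.98 and 0.99. At the few reads of a BX2OFF window a rho is held down by counting error.

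In BX2theta the antisense reads were concentrated in the part of P(lacW) shared with the reporter, while the sense reads lay there about in proportion to its length. In BX2OFF it was the sense reads that were concentrated in that part, and the interval of the antisense reads included the share of the length. In BX2theta 34.2% (33.7 to 34.6) of sense reads and 51.8% (51.2 to 52.4) of antisense reads lay in the shared part, which is 33.2% of the length. In BX2OFF 48.4% (43.8 to 52.9) of sense and 36.9% (32.5 to 41.4) of antisense reads did. Inside the shared part the antisense share was therefore 42.6% (37.8 to 47.6) in BX2OFF and 53.2% (52.6 to 53.8) in BX2theta, and from position 3634 on it was 54.5% (50.1 to 58.7) and 35.3% (34.8 to 35.8). Both pairs of intervals are apart, in opposite directions. The ratio of BX2theta to BX2OFF was 80.0 (68.6 to 93.9) for antisense and 52.3 (45.7 to 59.96) for sense reads of the shared part. In the rest it was 43.1 (38.3 to 48.7) for antisense and 94.5 (83.1 to 108) for sense reads. With both strands together the parts were alike, at 64.1 (57.9 to 71.0) and 66.5 (60.97 to 72.7). Without the 10 richest positions of each strand the antisense shares were 41.4% and 52.7% in the shared part and 55.9% and 38.2% in the rest.

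Windows of 1000 bp showed where the strands traded places. The first 1000 positions held 30 sense and 31 antisense reads in BX2OFF and 1481 and 3544 in BX2theta, where antisense reads made up 70.5% (69.3 to 71.8). The window from 2001 to 3000 went from 27.8% (20.2 to 36.9) antisense in BX2OFF to 48.2% (47.0 to 49.4). In the other direction, the window from 8001 to 9000 went from 58.3% (46.8 to 69.0) to 30.0% (28.9 to 31.2), and that from 6001 to 7000 from 55.8% (45.8 to 65.4) to 31.3% (30.2 to 32.5). Of the 11 windows, 2 had a higher and 6 a lower antisense share in BX2theta by over 10 percentage points, together 72.7%, and in 7 (63.6%) the intervals of the libraries were apart. Of 197 windows of 42AB with at least 30 reads in each library, 18 (9.14%) differed by over 10 points, with a median difference of 2.22 points. In 92 of these (46.7%) the intervals were apart too, at their far greater depth. The BX2OFF windows of P(lacW) held 44 to 155 reads, so their intervals are wide.

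The positions occupied in BX2OFF were mostly occupied in BX2theta too. On the sense strand 259 of the 293 BX2OFF positions (88.4%, 84.2 to 91.6) held a BX2theta read, and on the antisense strand 257 of 296 (86.8%, 82.5 to 90.2), whereas 35.8% and 33.1% of all positions did. Seen from BX2theta these are 6.77% and 7.26% of its positions. They were rich ones, with a median of 13 sense or 11 antisense BX2theta reads against 3 over all occupied positions, and held 29.1% of the sense and 21.01% of the antisense reads. At 42AB 70.4% of the sense and 70.8% of the antisense BX2OFF positions were occupied in BX2theta, where 19.3% and 19.4% of all positions were. The 3 inactive libraries without the reporter have tables of 23 to 29 nt reads only. Of their positions, 91.7% of 121 sense and 86.8% of 144 antisense ones were occupied in BX2theta. In BX2OFF with the reporter 28 (23.1%) and 35 (24.3%) of them were, where 2.74% and 2.77% of all positions were occupied. Seen from that library these are 9.56% and 11.8% of its positions. Of the BX2theta positions, 61.7% (sense) and 58.9% (antisense) were also occupied in the library of BX2*, the active state reached without heat, whose flies had no reporter, and these held 90.9% and 87.4% of the BX2theta reads.

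The ratio varied widely between single positions. The richest BX2theta position, sense 1720 in the shared part, had 1196 reads and none in BX2OFF, where 14.8 reads would stand if its share of the strand were the same, so its level was at least 365-fold higher. Sense 1835, also in the shared part, had 927 reads in BX2theta and 8 in BX2OFF, close to the 11.5 of an equal share, a ratio of 106 (53.7 to 247). Outside the shared part, sense 6665 had 881 reads against 3, sense 8767 had 857 against 6 and sense 6155 had 479 against 0. Of the 5 richest antisense positions, 4 lay in the shared part and had no BX2OFF read. These were 2317 with 600 reads, 228 with 481, 1175 with 458 and 2262 with 243, and equal shares would give 9.67, 7.75, 7.38 and 3.92 reads in BX2OFF. The remaining one, 4011, had 350 reads in BX2theta and 1 in BX2OFF and marks the near edge of the empty stretch.

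Among the 5 richest sense positions of BX2OFF, 1835 and 8767 had ratios of 106 and 131, above the ratio of 74.0 over all sense reads of 18 to 29 nt. The others were below it, namely sense 7162 with 8 reads in BX2OFF and 102 in BX2theta, 2000 with 7 and 234, and 2892 with 5 and 75. The richest antisense positions were all below the antisense ratio of 56.9, with 8780 at 7 and 116 reads, 1868 at 6 and 48, 1318 at 5 and 81, and 5067 at 5 and 62. Antisense 226 had 5 reads in BX2OFF and 4 in BX2theta, a ratio of 0.733 (0.146 to 3.41), although position 228 beside it was the second richest antisense position of BX2theta. Positions picked for being rich in BX2OFF lean toward a low ratio by that choice, as those picked in BX2theta lean toward a high one. No BX2OFF position held more than 8 reads, so the 78 positions with at least 100 reads in the libraries together passed that limit through BX2theta, and that 78 (100%) were more than 2-fold higher there was fixed by the limit. Of these, 21 of 45 sense and 22 of 33 antisense ones had no BX2OFF read, a count that depends on the same limit. Over all occupied BX2theta positions, 6.77% of sense and 7.26% of antisense ones held a BX2OFF read. At 42AB, of 5728 such positions, 5.73% were more than 2-fold higher and 9.79% more than 2-fold lower in BX2theta.

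BX2theta reads were unevenly spread over the occupied positions. The 10 richest sense positions held 16.1% (15.8 to 16.5) of the sense reads and the 10 richest antisense ones 11.6% (11.3 to 12.0). In BX2OFF these shares were 11.8% (9.17 to 15.1) and 10.3% (7.84 to 13.5), and the antisense interval includes the BX2theta value. In BX2theta 179 sense and 215 antisense positions, 4.68% and 6.07% of those occupied, held 50% of the reads of their strand. At 42AB in the same library 1.16% and 1.15% of the occupied positions did, so by this measure 42AB, at its greater depth, was more concentrated. The richest 42AB positions were shared by both libraries, with 12130 and 11062 reads at sense 6234, 12194 and 9212 at sense 9776, 15014 and 13242 at antisense 29252, and 14250 and 15621 at antisense 22565 for BX2OFF and BX2theta. Their ratios were 0.836, 0.692, 0.808 and 1.005, against 0.925 for all 18 to 29 nt reads of the cluster. The lowest, at sense 9776, has an interval of 0.674 to 0.712.

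The windows of 42AB furthest from level were 2 neighbours on the sense strand. Sense reads in the windows from 193001 to 194000 and from 194001 to 195000, singled out after their values were seen, numbered 3418 and 4159 in BX2OFF and 316 and 93 in BX2theta, ratios of 0.0847 (0.0753 to 0.0951) and 0.0205 (0.0165 to 0.0252). The BX2* library had 5418 and 7551 reads there. Antisense reads of the former window stood at 979 miRNA rpm in BX2OFF and 770 in BX2theta, a ratio of 0.787 (0.749 to 0.826). They were lower in BX2theta too, but far less so than the sense reads. The latter window had only 4 and 2 antisense reads, too few to compare its strands. These windows make up a small part of 42AB and leave its total nearly unmoved, but in them the cluster was not unchanged. Other windows past 2-fold were closer to level, such as sense 185001 to 186000, with 17602 and 6211 reads (0.323), and antisense 67001 to 68000, with 21448 and 9360 (0.400). Single 42AB positions also ranged widely, with ratios from 0.00814 to 220.8 among those with at least 100 reads.

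By reads, sense and antisense 5′ ends of BX2theta paired most often at an overlap of 10 nt, by a narrow margin that was lost when positions were counted. For each overlap of 1 to 29 nt the pairs were counted as the smaller read number of the 2 positions, and the z-score sets an overlap against the mean and SD of all 29. At P(lacW) in BX2theta 10 nt had 4205 pairs (z of 1.93), followed by 25 nt with 3994 and 22 nt with 3967. The other overlaps had 2942 to 3994 pairs with a mean of 3639, so 10 nt was 1.16 times that mean. At 42AB in the same library 10 nt had 136466 pairs (z of 4.80), 2.24 times the mean of the others, and in BX2OFF the value was the same, 2.24. Counting each pair of positions once, the P(lacW) z-score at 10 nt was 0.10. By this count 15 overlaps had more pairs than its 1399, led by 20 nt with 1482, so the lead of 10 nt was lost. At 42AB in BX2theta the lead was lost by this count too. There 10 nt had 18065 pairs (z of 1.07), fewer than the 18358 at 23 nt and the 18250 at 22 nt. Of the sense P(lacW) reads of BX2theta, 42.8% had an antisense partner at 10 nt, fewer than the 45.2% at 29 nt and the 43.3% at 20 nt. At 42AB 10 nt led by this measure, with 63.4% against 46.2% at 22 nt.

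Within neither part of the transgene did 10 nt lead. In the part shared with the reporter 10 nt had 1709 pairs, 1.21 times the mean of the other overlaps, second to 1734 at 25 nt, and 51.9% of the sense reads had a partner at 10 nt against 57.0% at 11 nt and 51.4% at 29 nt. In the rest 10 nt had 2491 pairs, 1.12 times the mean, and 19 nt had 2495. An overlap of 19 nt is that of the duplex made by Dicer-2 from 21 nt strands. Over the whole transgene 19 nt had 1.08 times the mean of the other overlaps in BX2theta (z of 1.01). In BX2OFF there were 4 to 19 pairs per overlap, with 19 at 14 nt (z of 2.30), 16 at 16 nt, 15 at 19 nt (z of 1.21) and 11 at 10 nt (z of 0.12), and at this depth no overlap could be told from the rest. Since the positions hold reads of all lengths, 21 nt reads are part of every count. In BX2theta they made up 18.6% of the P(lacW) reads and 3.42% of the 42AB reads. The 10 nt values of P(lacW) and 42AB are thus not on equal terms. The study counted overlaps of 23 to 29 nt reads alone and reported an enrichment at 10 nt for BX2theta. That count could not be repeated here, as the positions are not split by length.

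**Figure D4:**
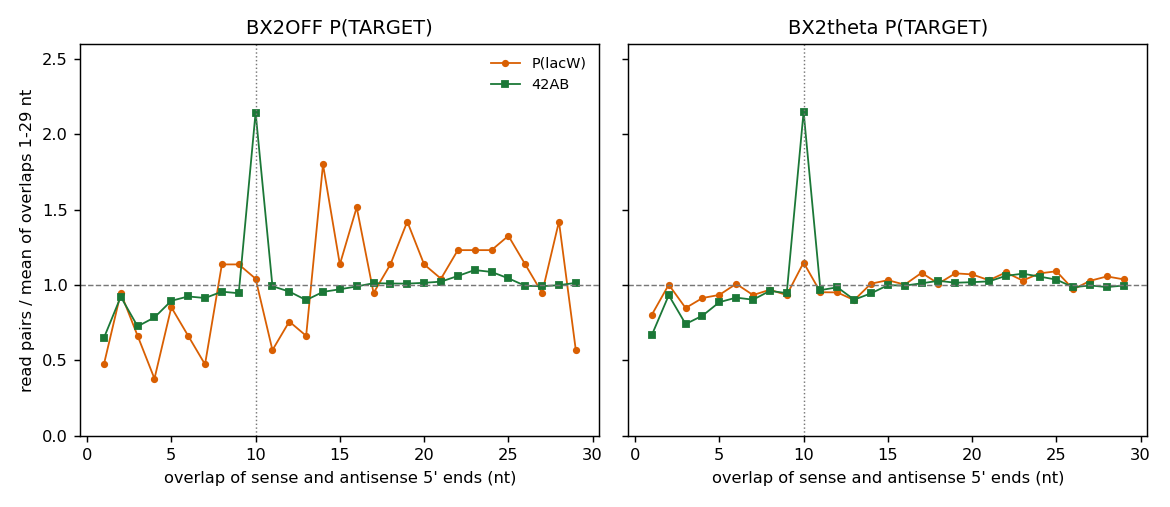
Read pairs at each overlap of sense and antisense 5′ ends (1 to 29 nt), divided by their mean over the 29 overlaps, for P(lacW) and 42AB in the BX2OFF and the BX2theta library; the dotted line marks 10 nt. The 10 nt peak of 42AB rises to over 2 times the mean in both libraries, whereas that of P(lacW) in BX2theta is small, 1.16 times the mean of the other overlaps, and P(lacW) in BX2OFF rests on 4 to 19 pairs per overlap.

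On the same strand, 5′ ends of BX2theta lay most often next to each other. Distances of 1, 2 and 3 nt had the most pairs of all distances up to 60 nt on both strands, with 9645, 8557 and 7376 on the sense strand (z of 4.47, 3.54 and 2.53) and 7170, 6790 and 6135 on the antisense strand (z of 3.73, 3.33 and 2.64). The same 3 distances led at 42AB. Among distances of 20 to 60 nt, a range chosen after the values were seen, the antisense strand of P(lacW) had most pairs at 26 nt (3797, z of 2.48), 29 nt (3648, z of 1.87) and 24 nt (3517, z of 1.34). The sense strand had most at 35 nt (4353, z of 2.36), 28 nt (4281, z of 2.00) and 56 nt (4161, z of 1.39). At 42AB in BX2theta the leading distances were 27, 28 and 25 nt on the sense strand and 27, 25 and 26 nt on the antisense strand.

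Distances of 24 to 29 nt, the lengths of piRNAs, were set against those on either side, 18 to 22 and 31 to 40 nt. In BX2theta their mean number of pairs was 1.03 times that of the flanks on the sense strand of P(lacW) and 1.09 times on the antisense strand. At 42AB the values were 1.12 and 1.21 in BX2theta and 1.17 and 1.21 in BX2OFF. When each pair of positions was counted once, without its reads, the BX2theta values at P(lacW) were 1.01 and 1.01, and those at 42AB 1.03 and 1.03. With the product of the read numbers in place of the smaller one, which gives the richest positions more weight, they were 1.25 and 1.18 at P(lacW) and 1.09 and 2.74 at 42AB in BX2theta, so the order of the sense strands turned. In BX2OFF the mean at P(lacW) was 7.17 sense and 9.83 antisense pairs a distance, too few to read a spacing.

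**Figure D5:**
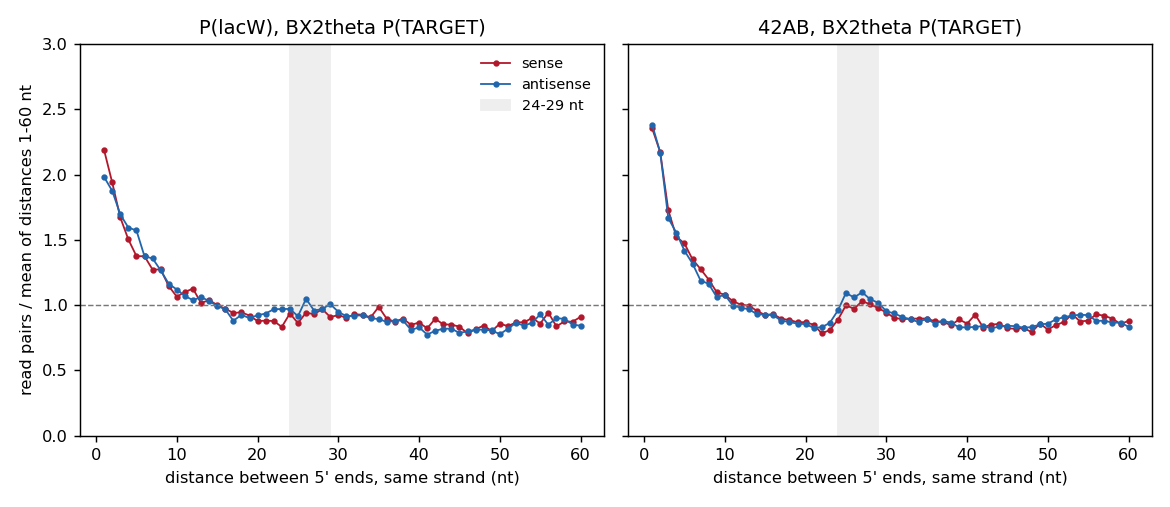
Read pairs at each distance between 5′ ends on the same strand (1 to 60 nt), divided by their mean over the 60 distances, for P(lacW) and 42AB in the BX2theta library; the grey band marks 24 to 29 nt. At both the shortest distances are highest and values fall off, and within the band 42AB rises to 1.12 (sense) and 1.21 (antisense) times its flanks and P(lacW) to 1.03 and 1.09 times.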

How the data were processed

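Small RNAs of hand-dissected ovaries were sequenced from TruSeq libraries by the authors, who aligned the reads with Bowtie (the labels name Bowtie2 2.0.3), kept at most 1 mismatch, and tabulated 18 to 29 nt reads by length and strand and by 5′ position. Row names of these tables carry the mark uni, and the study says that its maps took only uniquely aligned reads. An empty stretch is thus one without reads that were kept. The deposited values are a signed score, namely reads times a factor per library that scales to the miRNA reads of the library (miRNA rpm), with antisense values negative. Divided by it, 100% of the values came out as whole reads (tolerance 0.01). The tables of the experiment without the reporter hold 23 to 29 nt reads under another scaling and the mark mul, and were used only for the inactive libraries. Library totals came from the study's annotation of the libraries, and the shared part was taken from its start and length as the study gives them, assuming the same numbering. No table held other columns of values per library (0) or comparisons by the authors.

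Groups followed the genotype and temperature labels. Pairs were counted as the smaller read number of the positions. Thinning used the closed formula of the expected number. Software was matplotlib 3.10.9, pandas 2.3.3, scipy 1.17.1 and numpy 2.4.6 under Python 3.11.15. The counting of pairs was tested on simulated data. The positions named are the 5 richest of P(lacW) and the 2 richest of 42AB per strand and library, the windows are the 3 richest and 3 poorest per strand, and ties were broken by position (4 antisense BX2OFF positions had 5 reads). These members, rules and lists were chosen with earlier results of these data known. The 1000 bp windows of P(lacW), the antisense share by part the windows with at least 10 BX2OFF reads and the named stretch of 42AB were chosen after values had been seen.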

Additional observations from a re-analysis of the deposited data

How the results depend on the processing

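No paired analysis was possible because each state had 1 library and the labels give no replicate numbers shared between them. Of 88 alternatives, 12 of them chosen after seeing the data, 62 stayed within the counting interval or limit set for the value, 23 moved and 3 turned sign. With genome-matched scaling the 42AB ratio was 0.928, and with 24 to 29 nt reads 0.935. With 24 to 29 nt reads the 26 nt share rose by construction to 26.8% for P(lacW) in BX2theta, 26.3% for 42AB in BX2OFF and 26.7% for 42AB in BX2theta, where the antisense share was 48.8%. With a minimum of 2 reads BX2OFF kept 204 of 589 positions of both strands and with 5 reads 11, and BX2theta kept 2553 of 7365 with 5 reads, since fewer positions pass. Within 1 nt 95.2% of BX2OFF positions at P(lacW) and 86.9% at 42AB were found in BX2theta. The 20 richest positions per strand held 17.7% of reads in BX2OFF and 19.8% in BX2theta. When pairs of positions were counted once, the z-score at 10 nt was 0.10 for P(lacW) in BX2theta, 0.85 for 42AB in BX2OFF and 1.07 for 42AB in BX2theta. The cause was not tested. With distances of 20 to 60 nt, a range chosen after seeing the data, the z-score at 26 nt turned from -0.22 to 1.37 for sense P(lacW) reads of BX2theta, from -0.01 to 1.80 for sense 42AB reads of BX2OFF and from -0.09 to 1.55 for sense 42AB reads of BX2theta. On the antisense strand it was 2.48, 2.39 and 2.22, because the short distances no longer entered the mean. Without the 10 richest positions of each strand the shared part held 40.05% of BX2theta reads and the antisense share of the rest was 38.2%. Scaled to miRNA reads, BX2theta stood at 269.6 times and BX2OFF with the reporter at 2.44 times the inactive libraries. Leaving out each of those in turn gave 237 to 257 and 2.16 to 2.34. Read number limits BX2OFF at P(lacW), where single lengths held 5 to 407 reads.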
